A study of Drosophila melanogaster with 2 samples.

Results

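The subject is the small nucleolar RNA (snoRNA) genes of Drosophila melanogaster and the genes that carry them in their introns, called hosts. Every gene on the 6 arms (2L and 2R, 3L and 3R, 4, X) whose symbol begins with "snoRNA:" was taken from the Ensembl BDGP6 annotation, which gave 257 of 18164 genes once transposable elements were left out. The peaks came from chromatin immunoprecipitation followed by sequencing (ChIP-seq) of CG14441-eGFP, a GFP fusion of the uncharacterised protein CG14441, in 1 group of 2 biological replicates. The material was whole embryos aged 0 to 24 h from a transgenic line with an insertion that targets CG14441, precipitated with an antibody against GFP; all tissues of the embryo were mixed, and no untagged or untreated group was analysed here. The main set, the conservative thresholded list that the authors derived from both replicates, had 5115 peaks on these arms of the assembly dm6. Signal is the strength that the authors' caller gave a peak, on a scale that is not stated, so signals are ranked and compared within a list only; the 2 replicate values are given side by side, and an SD over them also holds any difference in scale between their lists. Read counts were not among the files, and the depth behind each value is unknown.

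A snoRNA guides the chemical modification of other RNAs by base pairing with them. Box C/D snoRNAs, named for their C and D boxes, direct 2'-O-methylation, and box H/ACA snoRNAs, which end in an ACA box, direct the change of uridine to pseudouridine, mostly in ribosomal RNA. In flies most snoRNAs have no promoter of their own: they are cut out of introns of a host transcript, often that of a ribosomal protein gene or of a non-coding U snoRNA host gene (Uhg), so the start site that drives them is the transcription start site (TSS) of the host.

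By symbol, 78 of the 257 were 2'-O-methylation guides, 106 were pseudouridine guides, 32 were other C/D and 9 other H/ACA snoRNAs, and 32 had a symbol that gives no class. A C box (TGATGA within the first 20 bases) together with a D box (CTGA within the last 12) was found in 59 of the 78 methylation guides and in 0 of the 106 pseudouridine guides. An ACA triplet that ends 3 bases before the 3' end was found in 101 of the 106 pseudouridine guides and in 0 of the 78 methylation guides. The snoRNA genes printed next are from dm6 (RefSeq Release 6 sequence), 5' to 3', and are shown because a summit lay within 500 bp of each start. Me28S-A774b lies at chr3L:13023580-13023652 (plus strand) in RpS12, Psi18S-1275 at chr3R:9778398-9778537 (plus) in RpS29, Psi28S-1060 at chrX:6742852-6743001 (minus) in RpL17, and Psi28S-3342 at chrX:5524302-5524465 (minus) in no host. Capitals mark the C and D boxes of the first and the ACA box of the others.
snoRNA:Me28S-A774b: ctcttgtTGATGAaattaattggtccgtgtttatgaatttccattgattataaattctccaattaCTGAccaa
snoRNA:Psi18S-1275: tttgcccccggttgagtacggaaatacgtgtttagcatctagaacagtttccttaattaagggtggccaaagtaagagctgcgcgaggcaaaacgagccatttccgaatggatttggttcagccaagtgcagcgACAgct
snoRNA:Psi28S-1060: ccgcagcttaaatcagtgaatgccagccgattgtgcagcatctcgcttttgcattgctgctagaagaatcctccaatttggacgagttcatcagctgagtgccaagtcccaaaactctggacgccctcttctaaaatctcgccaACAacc
snoRNA:Psi28S-3342: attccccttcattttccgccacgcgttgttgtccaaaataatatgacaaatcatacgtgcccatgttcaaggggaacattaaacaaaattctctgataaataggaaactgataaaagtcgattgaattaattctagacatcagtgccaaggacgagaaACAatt

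The sequence at the summit of the peak is shown for 5 hosts: RpL17, the ribosomal protein host of highest signal; RpL28 and RpS12, which hold a DNA replication-related element (DRE), the palindrome TATCGATA bound by the factor DREF; RpS5a, the peaked host with the most snoRNAs; and Uhg8, a non-coding host. Each window reaches up to 50 bp to either side of the summit, ends before the host TSS and any annotated UTR, and is written on the host's strand. Capitals mark TATCGATA, the shorter CGATA that is contained in it and is the core of the sites of the insulator protein BEAF-32, and GAGAG, each on either strand. The windows lie at chrX:6744247-6744347 (RpL17, minus), chr3L:3222961-3223059 (RpL28, minus), chr3L:13023249-13023349 (RpS12, plus), chrX:17148278-17148378 (RpS5a, minus) and chr3L:20452883-20452983 (Uhg8, plus) of dm6.
RpL17: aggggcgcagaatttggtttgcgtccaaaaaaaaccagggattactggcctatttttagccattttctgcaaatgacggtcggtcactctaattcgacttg
RpL28: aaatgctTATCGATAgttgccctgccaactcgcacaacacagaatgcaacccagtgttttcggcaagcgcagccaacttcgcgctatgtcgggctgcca
RpS12: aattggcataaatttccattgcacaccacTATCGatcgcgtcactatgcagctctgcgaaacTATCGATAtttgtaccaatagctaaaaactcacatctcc
RpS5a: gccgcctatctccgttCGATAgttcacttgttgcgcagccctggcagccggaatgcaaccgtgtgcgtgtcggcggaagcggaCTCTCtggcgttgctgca
Uhg8: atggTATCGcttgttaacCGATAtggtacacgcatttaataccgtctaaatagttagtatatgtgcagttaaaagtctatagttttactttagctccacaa

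CG14441-eGFP summits stood at a smaller share of snoRNA starts than of gene starts in general within 500 bp, and at a larger share in the next 500 bp. A summit lay 0 to 500 bp from the start of 17 of the 257 snoRNA genes (6.61%, exact 95% interval 3.90 to 10.4), beside 2548 of 18164 genes of all types (14.0%). Over 500 and up to 1000 bp away the snoRNA genes numbered 30 of 257 (11.7%, 8.02 to 16.2), beside 719 of 18164 genes (3.96%). The median distance from a start to the nearest summit was 3358 bp for snoRNA genes and 7682 bp for all genes. These are shares of genes that are not independent, because neighbouring snoRNAs share a host and a peak: the 17 genes lay at 15 distinct peaks and the 30 at 23. Counted once per host or cluster of starts, by the start nearest to a summit, 15 of 99 units (15.2%) had a summit within 500 bp. In 16 of 99 (16.2%) the nearest one was in the farther range. A unit with several starts has more chances of a near summit than a single gene. All genes were not grouped in this way, so these shares are not like for like with the 14.0% and 3.96%. The first comparison thus depends on the unit counted.

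Most of the snoRNA genes with a summit within 1000 bp had it near a TSS of their host. This is a matter of position: some of these summits, such as those at Irbp and RpS20, were nearer to the TSS of another gene. Which start a summit belongs to was not tested. Of the 47 snoRNA genes with a summit within 1000 bp, 31 had it within 500 bp of a TSS of their host, 9 of the 17 nearer ones and 22 of the 30 farther ones. Among the 210 with no summit within 1000 bp, the nearest one was that close to a host TSS for 55 (26.2%). The summit lay upstream of the snoRNA start for 12 of the 17 (70.6%) and 28 of the 30 (93.3%), beside 136 of the 210 (64.8%). A ribosomal protein gene was the host of 23 of the 47, beside 71 of all 257 snoRNA genes. From the host TSS to the snoRNA start the median distance was 363.5 bp in the nearer group, 723 bp in the farther group and 1644 bp among the snoRNAs with no summit within 1000 bp. This order follows in part from the split by distance, because most of the near summits lay within 500 bp of a host TSS.

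**Figure D1:**
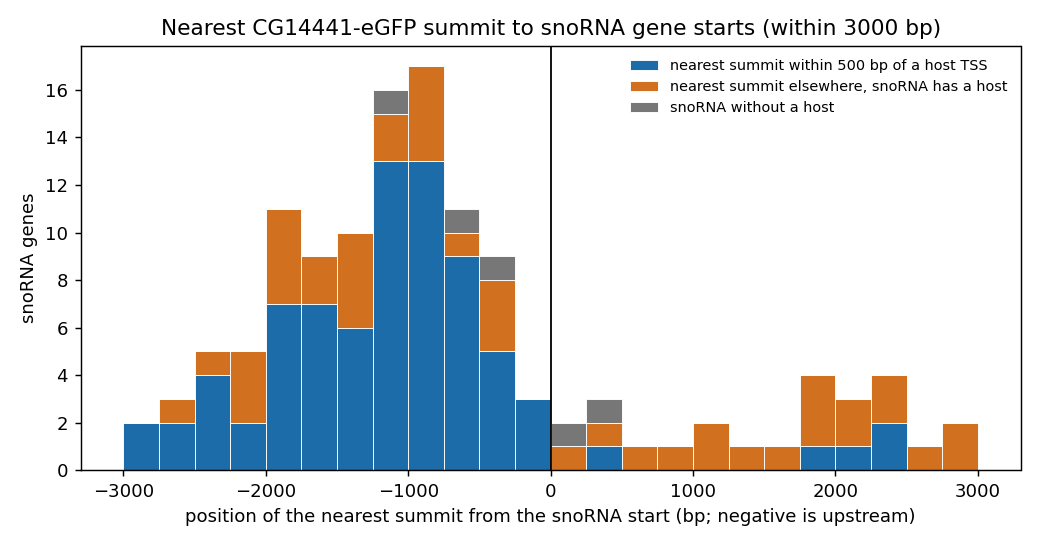
Position of the nearest main-set summit relative to each snoRNA gene start (bp, negative is upstream) for the 126 snoRNA genes with a summit within 3000 bp, as stacked counts of genes in bins of 250 bp, coloured by whether that summit lies within 500 bp of a host TSS. For 101 of the 126 the summit is upstream, and few summits sit at the snoRNA start itself.

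Of the 257 snoRNA genes, 236 (91.8%) lay wholly within a gene on the same strand, 230 of them in an intron of it, and these made up 82 hosts. The hosts were 28 ribosomal protein genes with 71 snoRNAs, 44 other protein-coding genes with 110, and 10 non-coding genes with 55. A summit within 500 bp of a TSS was found at 37 of the 82 hosts (45.1%, exact 95% interval 34.1 to 56.5), beside 2637 of 13945 protein-coding genes (18.9%).

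Ribosomal protein genes carried a peak often whether or not they held a snoRNA. The share was 19 of 28 ribosomal protein hosts (67.9%, 47.6 to 84.1) and 35 of the 65 ribosomal protein genes without a snoRNA (53.8%), and the intervals overlap. Among the other protein-coding hosts 16 of 44 had a peak (36.4%, 22.4 to 52.2), beside 2567 of 13808 other protein-coding genes without a snoRNA (18.6%). Of the non-coding hosts, Uhg4 and Uhg8 had a peak, 2 of 10 (20%, 2.52 to 55.6), beside 179 of 3257 non-coding RNA genes (5.50%). The differences between hosts and other genes were not tested, and the hosts had been chosen with results of these data known.

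**Figure D2:**
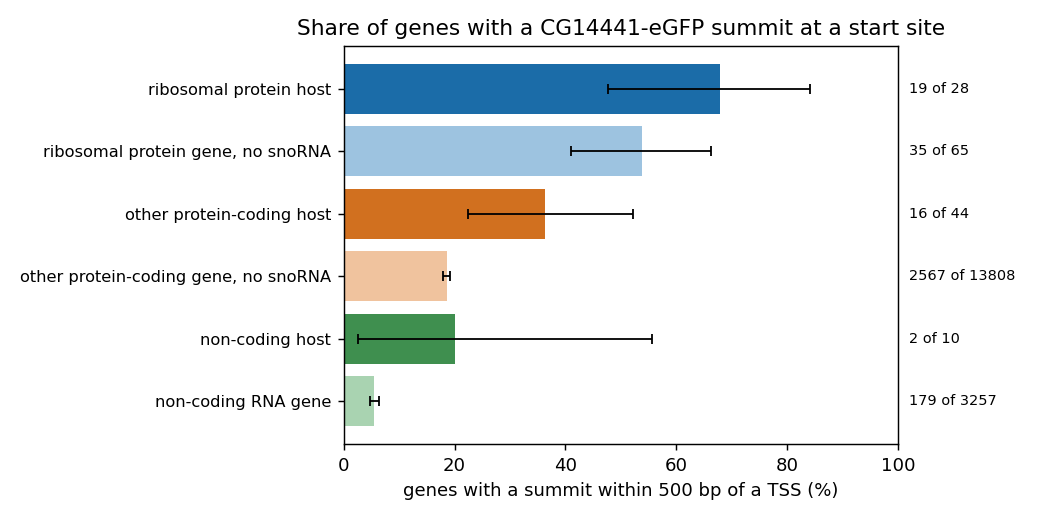
Percent of genes with a summit of the main set 500 bp or less from a TSS, for the 3 classes of host and, in paler colour, for genes of the same kind (ribosomal protein or other protein-coding genes with no snoRNA, and all non-coding RNA genes apart from snoRNA genes); bars show the share, lines the exact 95% interval, and the counts are at the right. Ribosomal protein genes stand highest with 67.9% of hosts and 53.8% of genes without a snoRNA.

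Counted by snoRNA, 93 of the 236 with a host (39.4%) sat in a host with a peak at a TSS. This was 55 of 71 in ribosomal protein hosts (77.5%), 28 of 110 in other protein-coding hosts (25.5%) and 10 of 55 in non-coding hosts (18.2%). Pseudouridine guides were in a peaked host in 48 of 101 cases and 2'-O-methylation guides in 22 of 75, a difference that was not tested. These cases share hosts and are not independent. Every snoRNA of the peaked hosts RpS5a, RpS7 and Hrb98DE is a pseudouridine guide, and so is every one of Arpc2, which has no main-set peak at a TSS. By arm, the count was 22 of 28 on X, of which 14 are in the single host RpS5a, 26 of 43 on 3R, of which RpS7 and Hrb98DE hold 7 each, and 7 of 37 on 2L, where 17 of the 37 are in Arpc2, a host with a peak at a TSS in the other thresholded list of the whole series but not in the main set. For 86 of the 93 the nearest summit of all was one at a host TSS, yet 60 of the 93 lay over 1000 bp from any summit.

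The share was similar for hosts with 1 and with several snoRNAs. A peak was present at 20 of 45 hosts with 1 snoRNA and at 17 of 37 with 2 or more. Among the 14 hosts with 5 or more snoRNAs, it was present at 4 of 4 ribosomal protein hosts (RpL28, RpS16, RpS5a and RpS7), at 1 of 6 other protein-coding hosts (Hrb98DE) and at 1 of 4 non-coding hosts (Uhg4).

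Among ribosomal protein hosts the highest signal was at RpL17 (FBgn0029897, a protein of the large subunit), whose peak at chrX:6744169-6744406 had a signal of 507. The strongest overlapping candidates had a signal of 228 in replicate 1 and 280.2 in replicate 2, a mean of 254 ± 36.6 (SD, n = 2). Its summit was 59 bp upstream of a TSS, and a lesser peak with a signal of 116 at chrX:6743200-6743523, within 500 bp of another annotated TSS, was the nearest to all 4 snoRNAs, all pseudouridine guides. Psi28S-1060 and Psi28S-1232 were at 361 and 453 bp from it, and Psi28S-3436a and Psi28S-3436b at 536 and 871 bp.

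RpS20 (FBgn0019936, small subunit) followed with a signal of 325 at chr3R:20821913-20822107, 177 in replicate 1 and 151 in replicate 2 (mean 164 ± 18.4, SD, n = 2). Its summit was 172 bp upstream of its TSS and 161 bp from that of CG17271, so the peak cannot be assigned to one of them. RpL14 had a signal of 287, with 157 and 132 in replicates 1 and 2, at chr3L:8600858-8601026, and RpL28 one of 285, with 111 and 159, at chr3L:3222916-3223088. The 2 snoRNAs of RpL14, U49:66Da and U49:66Db, started 520 and 995 bp downstream of the summit, and Or-CD11a, Or-CD11b and Or-CD11c of RpL28 at 468, 680 and 893 bp.

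RpS12, RpS29, RpS4, RpL22 and RpS5a had similar signals, from 176 to 189.8. At RpS12 the signal was 189.8, with 95.8 and 88.0 in replicates 1 and 2, and Me28S-A774b, printed above, started 281 bp downstream of the summit. RpS29 had 189, with 75.0 and 117, and its summit was 8 bp upstream of the TSS and 364 bp upstream of Psi18S-1275. At RpS4 the signal was 182, with 68.2 and 126. RpL22 had 179.9, with 115 and 72.8. RpS5a (FBgn0002590), which carries 14 snoRNAs, had a signal of 176 at chrX:17148166-17148489, with 98.7 and 85.9 (mean 92.3 ± 9.01, SD, n = 2); the nearest of its snoRNAs started 1569 bp from the summit, so none of the 14 counted as near a peak.

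Most of the remaining ribosomal protein hosts had signals from 108 to 156. RpS16 had 156, with 51.6 in replicate 1 and 105 in replicate 2, and carries 5 snoRNAs. RpS7, with 7 snoRNAs, had 120.1, with 78.0 and 55.1. Between them came RpL30 (136), RpL11 (133), RpL4 (125), RpL10Ab (123) and RpS6 (122), and below them RpL27A (119.8) and RpL36A (108). RpL10Ab had 2 summits, the stronger one 319 bp upstream of its TSS and 257 bp from that of CG11597, and a weaker one with a signal of 48.9 at 64 bp from its TSS and 197 bp from Psi18S-920.

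Among the other protein-coding hosts Stt3A (FBgn0031149), which encodes a catalytic subunit of the oligosaccharyltransferase, had the highest signal of all 37 hosts, 568 at chrX:21054209-21054456, with 322 in replicate 1 and 250.3 in replicate 2 (mean 286 ± 51.0, SD, n = 2). This summit was 394 bp upstream of its TSS and nearer, at 215 bp, to the TSS of bves. Msp300, a nesprin of muscle nuclei, had a signal of 472, with 269 and 205, and Dys, the fly dystrophin, 296, with 156 and 131; their snoRNAs lay 16282 and 37640 bp from any summit. Irbp, the fly Ku70 of DNA end joining, had 423 at chr3R:11409834-11410057, with 242 and 173, and its Irbp-a started 911 bp from that summit, which was nearer to the TSS of mgr (62 bp) than to its own (110 bp). eEF1alpha1, the translation elongation factor, had 235, with 109 and 113.

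The others had signals from 62.3 to 222. Among these were drn (222), the splicing factor SC35 (175), the splicing factor Prp39 (115), tou (102), the RNA-binding hnRNP protein Hrb98DE (102), pths (96.1), the transcription factor lola (91.0), the chromatin protein Dek (87.9), the adducin hts (71.8) and CG42564 (62.3). Hrb98DE carries 7 snoRNAs, and its values in replicates 1 and 2 were 48.6 and 46.9. The peaks of Hrb98DE and CG42564 were in neither replicate's own set, and Dek had a candidate in replicate 2 alone (43.1).

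Both non-coding hosts with a peak are spliced U snoRNA host genes. Uhg4 had a signal of 369, with 151 in replicate 1 and 209 in replicate 2 (mean 179.8 ± 41.3, SD, n = 2), and its summit was 67 bp upstream of the TSS. Its 7 snoRNAs follow one after another, and 3 of them, Psi28S-2949, Or-aca5 and Me28S-G3255a, started 166, 479 and 790 bp downstream of that summit. Uhg8 had a signal of 151, with 93.4 and 65.1, but this summit was 360 bp from its own TSS and 69 bp from that of CG5199; a second one with a signal of 49.7 was 146 bp from the TSS of Uhg8 and 860 bp from Me18S-U1356a.

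**Figure D3:**
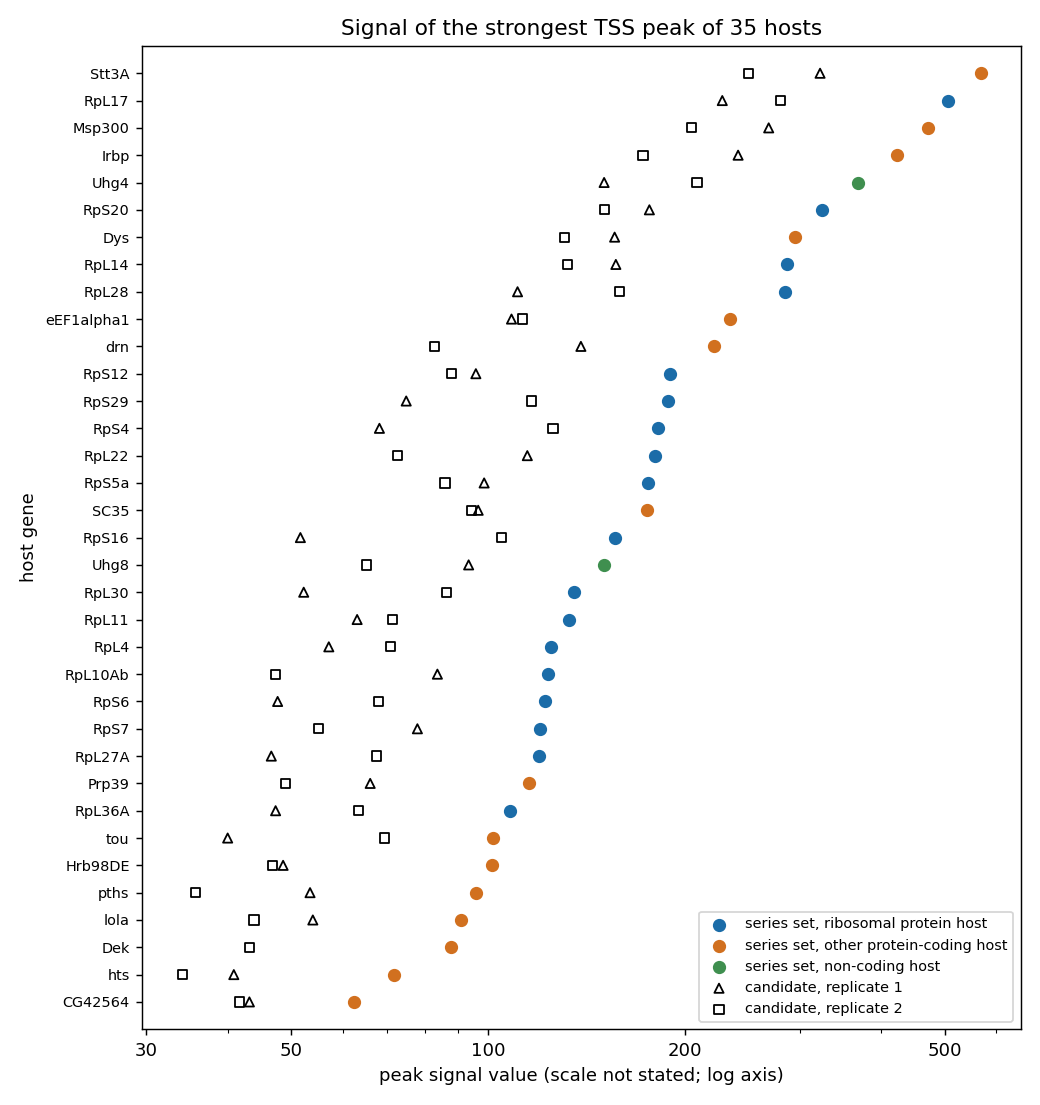
Signal of the strongest peak at a TSS for 35 of the 37 hosts (filled, coloured by host class; log axis, scale of the caller not stated), with the strongest overlapping candidate of replicate 1 (triangle) and replicate 2 (square). The main-set values run from 62.3 at CG42564 to 568 at Stt3A and lie above both replicates, which were called separately; Dek has no triangle.

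Over the 37 hosts, the median and quartiles of the signal were similar to those at other promoters. The median was 156 (quartiles 115 and 235), against 147 (96.6 and 264) over the 2637 protein-coding genes with a TSS peak. Ribosomal protein hosts had a median of 156, other protein-coding hosts 145 and ribosomal protein genes without a snoRNA 147. Of the 37 peaks, 29 were also in the thresholded sets of both replicates, 3 in that of replicate 1 only, 2 in that of replicate 2 only and 3 in neither. The SD of the 2 replicate values was 20.7% of their mean in the median host and at most 48.1%, over the 36 hosts with a candidate in both.

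Summits stood close to the start of ribosomal protein hosts and farther upstream of the others. They were within 100 bp of the TSS at 16 of 19 ribosomal protein hosts and at 28 of 35 ribosomal protein genes without a snoRNA, but at 3 of 16 other protein-coding hosts; over all protein-coding genes with a peak the share was 33.8%. The median position was -49 bp for ribosomal protein hosts, -35 bp for ribosomal protein genes without a snoRNA, -145 bp for other protein-coding hosts and -128 bp for all protein-coding genes. Upstream summits made up 31 of the 37 (83.8%), a share close to that of other genes with a peak. It was 2250 of 2637 over all protein-coding genes (85.3%) and 29 of 35 at ribosomal protein genes without a snoRNA (82.9%). Another gene's TSS lay within 500 bp of 18 of the 37 summits and nearer than that of the host for 10, among them Stt3A (bves), Irbp (mgr), RpS20 (CG17271), SC35 (eRF3), Uhg8 (CG5199), RpL10Ab (CG11597), RpS6 (the pseudogene CR33222), hts (CalpA) and CG42564 (CRAT). With such summits left out, an alternative chosen after seeing the data, 30 of the 82 hosts had a peak. The same count was not made over all protein-coding genes, so it has no background to be read against.

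**Figure D4:**
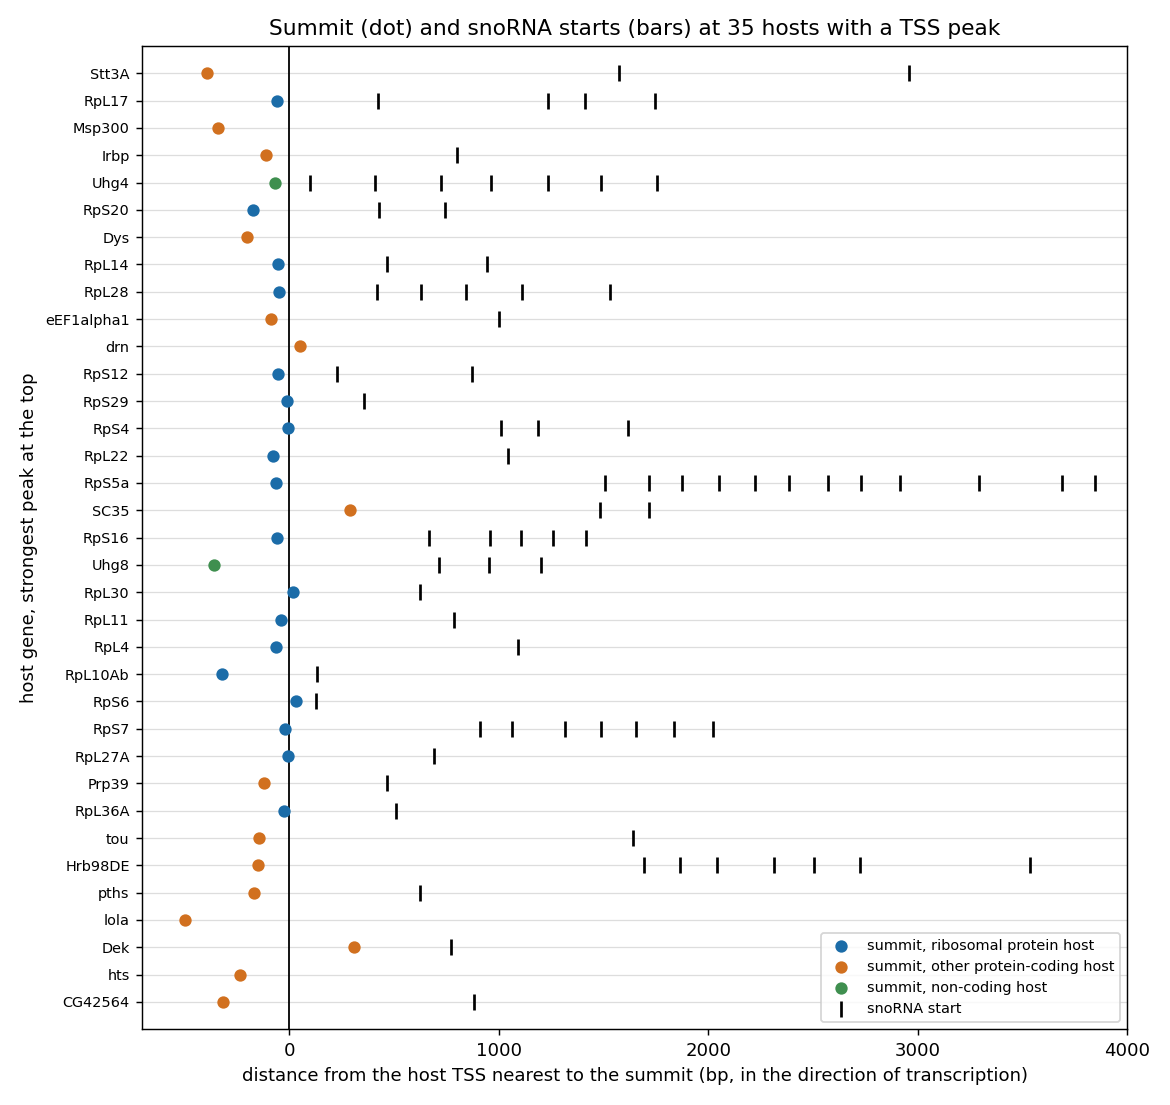
Layout of 35 of the 37 hosts with a TSS peak, aligned at the TSS nearest to the summit (0 bp, transcription to the right), ordered by signal with the strongest at the top; dots are summits coloured by host class and vertical bars are snoRNA starts, of which 79 of 90 fall in the range drawn (700 bp upstream to 4000 bp downstream). Summits of ribosomal protein hosts lie close to 0 bp, and the snoRNAs follow downstream.

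Of the 17 nearer snoRNA genes, 8 had a summit that was not at a host TSS, and for 8 of the 17 the snoRNA start was closer to the summit than any TSS was. Dek-a was the closest of all, 57 bp from a summit with a signal of 60.6 in Dek, 828 bp from the host TSS. Psi18S-176, which has no host, was 60 bp from a summit with a signal of 95.3. Or-ACA9 in AdamTS-A was at 251 bp (106), Psi28S-3342, printed above and without a host, at 257 bp (62.1), Or-CD4 in Uhg5 at 390 bp (163), abba-a in tn at 446 bp (168) and Psi18S-525a in Arpc2 at 468 bp (91.6). Or-CD13, without a same-strand host but within egr on the opposite strand, was at 496 bp from a peak at chr2R:10081733-10081926 with a signal of 359. That peak lies between Or-CD13 and Or-ACA6, whose start was 1 bp beyond the limit of 500 bp and so just outside the nearer class. At the outer limit U49:66Db was just inside at 995 bp, and Psi28S-1175a in RpS16 just outside at 1014 bp. In the farther class the highest signals were those at Irbp-a (423), Me28S-G3255a in Uhg4 (369) and Or-ACA6 (359).

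Several of the hosts with the most snoRNAs had no peak at a TSS. Of the 6 that hold the most, Arpc2 (17 snoRNAs), a subunit of the actin-nucleating Arp2/3 complex, had none; its nearest main-set summit was 790 bp from a TSS, and a ranked candidate with a signal of 101 at a TSS was in the thresholded set of replicate 1. Uhg1 (16) had neither a peak nor a candidate. At dom (15), the Domino chromatin remodeller, a candidate of 53.5 was in the other thresholded list of the whole series but not in the main set. RpS5a (14) was the one with a peak. Uhg5 (11) had a candidate of 33.3, with the peak near Or-CD4 lying 3042 bp from its TSS. At kra (8), a regulator of translation initiation, a candidate with a signal of 115 had a -log10 irreproducible discovery rate (IDR) of 3.11, past the lowest value in the main set (2.00), yet it was absent from that set. The same was true of RpL13A on the same arm, with a signal of 132 and a -log10 IDR of 2.81. These were 2 of the 45 hosts without a peak, and over the whole list 119 such candidates were missing from the main set, 82 of them on 3R. Of the 45, 40 had a candidate of some strength (median signal 44.3) and 6 had a thresholded peak in at least 1 replicate. The ranked list is dense, with 121431 candidates on the arms (median signal 23.1). The share of all genes with a candidate at a TSS was not counted, so 40 of 45 has no background to be read against. No candidate was found at the ribosomal protein hosts RpL15, RpL5 and RpS3A. Their nearest main-set summits were 4388357, 414924 and 592865 bp from a TSS, so the absence of peaks there is not particular to these promoters.

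Around the summits, DRE stood at a larger share of ribosomal protein promoters with a peak than of all summits at protein-coding start sites. The units differ: each gene set used the strongest summit of a gene, and the wider set held every main-set summit within 500 bp of such a site. Within 100 bp of the summit, on either strand, TATCGATA was present at 6 of 19 ribosomal protein hosts (31.6%), 10 of 35 ribosomal protein genes without a snoRNA (28.6%), 7 of all 37 hosts (18.9%) and 145 of 2141 summits at protein-coding start sites (6.77%). CGATA, which every DRE contains, was found at 12 of 19 ribosomal protein hosts (63.2%), 18 of 37 hosts (48.6%) and 36.4% of the 2141. At ribosomal protein genes without a snoRNA it was at 25 of 35 (71.4%). GAGAG, the site of the GAGA factor, was at 5 of 37 hosts (13.5%) and 21.0% of the 2141, and TATAAA, the TATA box, at 7 of 37 (18.9%) and 34.8%. The E-box CAGCTG was at 3 of 37 (8.11%) and 12.6%. Runs of AAAAAAAA were at 9 of 37 (24.3%) and 13.2%. At the 35 ribosomal protein genes without a snoRNA, GAGAG was at 0, TATAAA at 8 (22.9%), CAGCTG at 3 (8.57%) and AAAAAAAA at 4 (11.4%). These are counts of letters in a window, given without a test.

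The proteins that assemble on snoRNAs were looked at by a list of 20 genes, of which 19 were matched in the annotation. A peak at a TSS was found at 6 of the 19 (31.6%, exact 95% interval 12.6 to 56.6; 18.9% of all protein-coding genes). Of the box C/D core, hoip (the 15.5K protein) had a peak with a signal of 75.0, while Fib (fibrillarin, the methyltransferase), Nop56 and nop5 had none. In the box H/ACA core NHP2 had one with a signal of 161, with a candidate in replicate 2 alone (83.2), and Nop60B (the pseudouridine synthase dyskerin), Nop10 and Gar1 had none. Among assembly factors Nufip had a peak (74.9). For hoip and Nufip the summit was nearer to the TSS of a neighbour, Pka-C1 and Atg3. The assembly factors rept, CG10341, CG10055 and pont had none in the main set. A candidate with a signal of 510 and the highest -log10 IDR of the list (5) stood at pont, an AAA+ helicase, but was missing from the main set like those at kra and RpL13A. Of 6 nucleolar and processing genes, Nopp140 (147), Rrp6 (95.3) and Dis3 (80.9) had a peak, the latter pair being exosome nucleases, and Nop17l, Rat1 and ldbr had none. Fib, nop5 and Nop60B are themselves hosts of snoRNAs.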

How the data were processed

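Per the labels, chromatin was sonicated to a size range of 200 to 800 bp. The authors deposited peak lists in dm6. Aligner, caller and versions: not given in the sources used here. Of 7 lists used, the conservative thresholded series list was the main set. The deposited signal is the authors' peak value (scale not stated), the summit column, deposited with unit other, holds an offset in bp, and the deposited IDR column is -log10 of the global IDR. Depth is unknown.

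Genes and TSSs came from Ensembl release 115 (BDGP annotation 6.54), and sequence from the RefSeq Release 6 genome. A host is a same-strand gene that spans the snoRNA, preferring one with it in an intron, then the shortest; 11 snoRNAs had several. A host peak is the strongest summit within 500 bp of any TSS. Replicate values are the strongest ranked candidate that overlaps the main peak by at least 1 bp, with an SD over 2 replicates. Exact 95% intervals (Clopper-Pearson) cover counting error only and treat genes as independent. Counting was tested on simulated data. Named were all hosts with a peak up to a limit of 30 by signal (some of the other 7 are named as the rest of a count, and 2 hosts are not reported here by name), the 6 hosts with most snoRNAs, the 0 to 500 bp members away from a host TSS, the 3 strongest in the farther range, members at both limits and up to 10 snoRNA-protein genes by signal, the rest of that list being named to complete its counts. Members and lists were chosen with earlier results of these data known. Tools were pyfaidx 0.9.0.4, scipy 1.17.1, pandas 2.3.3, numpy 2.4.6 and matplotlib 3.10.9 under Python 3.11.15.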

Additional observations from a re-analysis of the deposited data

How the results depend on the processing

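No paired analysis was possible because all libraries form 1 group. Of 62 alternative values, 54 stayed near the reported one. For counts this meant within 1.5 times. For the median signal of host peaks it meant within 20.7%, the median replicate SD as a percent of the mean. The median signal of host peaks was 156 in the main set and 189 in its 2557 strongest peaks. It was 83.7 to 84.4 in the sets of the single replicates, whose signals may be on another scale. In those strongest peaks, 11 snoRNA genes had a summit at 0 to 500 bp (17 in the main set), 19 over 500 and up to 1000 bp away (30) and 1 without a host at 0 to 500 bp (3). That last count was 1 to 2 in the sets of the single replicates. Counted once per host or cluster, 15 of 99 units had a summit at 0 to 500 bp and 16 in the farther range. The tally of 54 compares counts and not shares, so it holds the first of these as unchanged. Its share rose from 6.61% to 15.2%, above the 14.0% of all genes. Each unit was counted by its start nearest to a summit and each gene by its own start, so these shares are not like for like. Hosts with a peak numbered 42 of 82 in the other series set, which added 7 (Arf1, Arpc2, RpL7A, Usp10, dom, gcl and pAbp) and lacked 2; with Arpc2 and dom added, 130 of 236 snoRNAs were then in a peaked host (93 in the main set). The sets of the single replicates gave 34 and 35 hosts. With 1 TSS per host, the gene start, 31 of 82 had a peak, beside 2327 of 13945 protein-coding genes (16.7%). For the other alternative host counts the share over all protein-coding genes was not counted. Leaving out summits nearer to another gene (30), counting every spanning gene (38) and taking a protein-coding host first (38) were chosen after seeing the data. Weak peaks, overlapping gene starts and the unknown depth limit these counts.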

Other observations

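The small Cajal body RNA (scaRNA) genes, relatives of snoRNAs that guide the modification of spliceosomal RNAs, were not among the members. Of 17 such genes, 0 had a main-set summit at 0 to 500 bp from the start (exact 95% interval 0 to 19.5%), beside 14.0% of all genes. Farther out within 1000 bp, 3 had one (17.6%, 3.80 to 43.4), beside 3.96% of all genes. They were MeU1:95C-A24 at 635 bp (signal 77.4), MeU5-C46 in CG1142 at 737 bp (766) and MeU1b-A234 at 902 bp (359). The last peak is the one between Or-CD13 and Or-ACA6. MeU2-C28, in the snoRNA host Stt3A, was at 1574 bp from a lesser peak of that gene (signal 119.6).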
